A study of Mus musculus with 12 samples.

Results

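Levels of 9 genes of hepatic glucose production and glycogen storage were followed in mouse hepatocyte spheroids: Ppp1r3c, Ppp1r3b, Gys2, Pygl, G6pc, Fbp1, Pck1, Pcx and Ppargc1a. The genes were chosen by name, with earlier results of these data known, so shares of all genes set beside them are description only. Each of the 9 had 1 probe set, among 11861 genes with a symbol on 11889 of the 13081 probe sets. Spheroids, rounded aggregates that form when cells cannot attach to the plate, were grown from 4 cryopreserved preparations of C57BL/6 mouse hepatocytes, 2 male and 2 female, each pooled from 3 animals, so that single mice cannot be seen. RNA of every preparation was read on 1 expression array at each of culture days 1, 7 and 14, which gives 12 arrays and 6 groups of sex and day with 2 arrays each. No drug, genotype or fresh liver was part of the groups, and the age of the mice is not given in the sources used here. Values are log2 levels, so a difference of 1 is a doubling, and each comes from 1 probe set, so levels are compared between arrays and never between genes.

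Hepatocytes supply glucose to the blood in fasting by breaking down glycogen and by gluconeogenesis, the building of new glucose from lactate, glycerol and amino acids. Pyruvate carboxylase (Pcx), the cytosolic PEP carboxykinase (Pck1), fructose-1,6-bisphosphatase (Fbp1) and the glucose-6-phosphatase catalytic subunit (G6pc) drive the steps that glycolysis cannot run backwards, and the coactivator PGC-1 alpha (Ppargc1a) raises transcription of several of them when glucagon and glucocorticoids are high and insulin is low. Glycogen is built by liver glycogen synthase (Gys2) and cut by liver glycogen phosphorylase (Pygl), while the products of Ppp1r3b and Ppp1r3c bring protein phosphatase 1 to the glycogen particle, where it activates the synthase and inactivates the phosphorylase.

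RefSeq start-site windows (build GRCm38.p6, 250 bases before to 50 after an annotated start) were matched by symbol for 7 of the 9 genes, with 2 windows for Pcx. Those of 5 genes are shown because the results turn on them: G6pc and Ppp1r3c had the widest mean gap between the sexes over all days, Fbp1 and Pygl were the genes that passed between days, and Pck1 kept no fixed order of the sexes across the days. Capitals mark matches, on either strand, to 7 short motifs. Each is written 5' to 3' on the strand of the gene.
G6pc, chr11:101367466-101367765, plus strand: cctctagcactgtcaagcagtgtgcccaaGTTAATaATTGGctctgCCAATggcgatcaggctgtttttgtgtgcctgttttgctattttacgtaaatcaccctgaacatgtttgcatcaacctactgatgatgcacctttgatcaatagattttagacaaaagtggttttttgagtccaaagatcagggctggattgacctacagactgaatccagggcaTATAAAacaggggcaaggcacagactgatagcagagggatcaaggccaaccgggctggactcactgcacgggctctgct
Ppp1r3c, chr19:36736555-36736854, minus strand: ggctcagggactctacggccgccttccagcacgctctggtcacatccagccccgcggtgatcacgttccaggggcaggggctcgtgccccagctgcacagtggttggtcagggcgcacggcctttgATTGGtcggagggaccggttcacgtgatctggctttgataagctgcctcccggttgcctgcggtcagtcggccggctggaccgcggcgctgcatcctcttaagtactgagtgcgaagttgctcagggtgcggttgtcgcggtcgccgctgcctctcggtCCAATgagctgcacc
Fbp1, chr13:62888233-62888532, minus strand: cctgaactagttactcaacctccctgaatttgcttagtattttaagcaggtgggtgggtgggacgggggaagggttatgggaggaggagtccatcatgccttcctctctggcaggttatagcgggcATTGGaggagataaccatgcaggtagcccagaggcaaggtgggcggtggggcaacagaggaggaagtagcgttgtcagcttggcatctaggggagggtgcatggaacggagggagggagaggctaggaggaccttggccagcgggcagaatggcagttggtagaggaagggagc
Pygl, chr12:70227634-70227933, minus strand: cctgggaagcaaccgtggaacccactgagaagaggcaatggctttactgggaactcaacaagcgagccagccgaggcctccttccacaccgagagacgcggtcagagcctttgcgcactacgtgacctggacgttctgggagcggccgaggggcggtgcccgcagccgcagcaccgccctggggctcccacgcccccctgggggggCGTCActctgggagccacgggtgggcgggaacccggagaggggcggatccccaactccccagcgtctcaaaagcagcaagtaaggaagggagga
Pck1, chr2:173152823-173153122, plus strand: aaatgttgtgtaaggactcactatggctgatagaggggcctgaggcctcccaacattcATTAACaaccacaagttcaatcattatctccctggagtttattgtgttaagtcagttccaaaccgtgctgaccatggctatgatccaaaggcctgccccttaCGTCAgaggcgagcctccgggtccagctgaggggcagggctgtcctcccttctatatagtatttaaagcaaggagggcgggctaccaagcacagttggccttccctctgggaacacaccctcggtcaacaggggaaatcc

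The letters TGACG, part of the cAMP response element, were found in 3 of the 8 windows (Pck1, first base at -90 from the start, Ppargc1a at -49 and Pygl at -44), against 20.8% of all 32851 windows of the same length. The letters CCAAT were found in 5 of 8, against 37.4%, and GTTAAT, part of the site of the liver factor HNF1, in 2 of 8 (G6pc and Pck1), against 7.1%. The TATA box letters TATAAA were found in the G6pc window alone, at -29, against 13.6% of all windows. The longer element TGACGTC, which contains the shorter form, had no match in the 8 windows, against 3.21% of all. Nor had AAACAAA, the core of the insulin response sequence bound by FoxO proteins, against 9.82%, or the forkhead letters GTAAACA, against 3.65%. A match describes letters only, and nothing follows from its absence in so short a window.

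The 12 arrays had medians over all probe sets between 7.47 and 7.53, each array's median correlation with the others across genes was 0.963 to 0.982, and 0 pairs were identical. Of 8 hepatocyte markers all were measured, with albumin (Alb) between 12.71 and 12.78 and the transcription factor gene Hnf4a between 11.18 and 11.42. The exception was Cyp2e1, a cytochrome P450 of pericentral hepatocytes, which ran from 2.87 to 5.65 on male arrays and from 4.24 to 7.94 on female arrays. The lowest maximum of any probe set over the arrays was 4.79, so no probe set that stayed lower on every array was among the deposited values. All genes but Pck1 reached that level on all 12 arrays, and Pck1 on 7 of 12.

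Most of the glucose and glycogen genes stood lower in male than in female spheroids at every day. In 7 of the 9 genes (all but Pck1 and Pcx) both male preparations lay below both female preparations at each of days 1, 7 and 14, as did 5.5% of all 11861 genes, and 5.81% showed the reverse order. For 5 of the 9, Ppp1r3c, G6pc, Gys2, Pygl and Ppargc1a, all 6 male arrays lay below all 6 female arrays, against 1.48% of all genes with that order and 1.8% with the reverse. By single day, both males were below both females in 7 of the 9 at day 1, 9 at day 7 and 9 at day 14, where 20.1%, 21.7% and 20.7% of all genes were. With the 3 arrays of a preparation averaged, the male minus female difference was below 0 in 9 of 9 genes and 45.2% of all genes, with a median of -0.44 against 0.02 over all genes. None of the 9 passed in limma after Benjamini-Hochberg adjustment (adjusted p 0.0534 to 0.490), as only 0.177% of all genes did with 2 preparations a sex. At an unadjusted p under 0.05 there were 7 of 9, all lower in males, against 10.6% of all genes that were lower in males by the same rule. In RNA from whole spheroids, fewer cells of a type and less RNA per cell cannot be told apart.

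**Figure D1:**
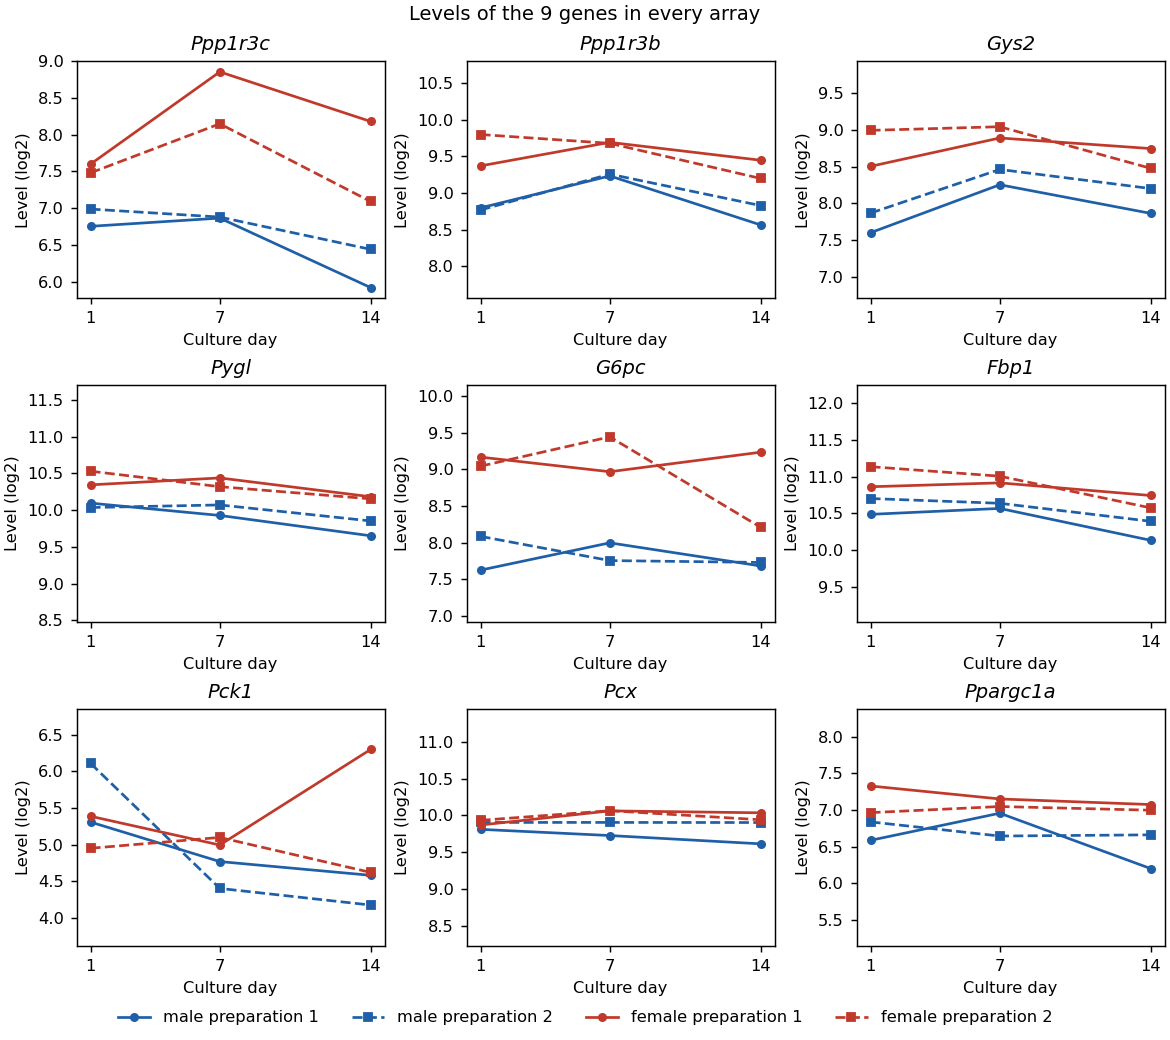
Log2 level of each gene (vertical axis, the same span in every panel) against culture day, with 1 point per array and 1 line per preparation (blue male, red female). The male lines lie below the female lines at every day in 7 panels; the lines meet or cross for Pck1 and Pcx.

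The catalytic subunit of glucose-6-phosphatase, which releases free glucose at the end of both pathways, stood apart between the sexes on every day. In male preparations 1 and 2, G6pc had log2 levels of 7.63 and 8.09 at day 1, 7.999 and 7.76 at day 7, and 7.68 and 7.73 at day 14. In female preparations 1 and 2 it had 9.17 and 9.04 at day 1, 8.97 and 9.44 at day 7, and 9.23 and 8.21 at day 14. The highest male array was below the lowest female array, and the nearest female array was that of preparation 2 at day 14. Averaged over the days, G6pc stood at 7.81 ± 0.06 in males and 9.01 ± 0.16 in females (SD, n = 2 preparations each), a difference of -1.20 ± 0.10 (SE, 95% interval -1.46 to -0.93, 2.29-fold lower in males, limma adjusted p = 0.0534). Without each preparation in turn the difference was -1.31 to -1.08 and the adjusted p was 0.0665 to 0.231.

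Of the glycogen-targeting subunits, Ppp1r3c stood further apart between the sexes at days 7 and 14 than at day 1 in its mean values. Male preparations 1 and 2 had 6.75 and 6.99 at day 1, 6.86 and 6.88 at day 7, and 5.92 and 6.44 at day 14. Female preparations 1 and 2 had 7.60 and 7.48 at day 1, 8.85 and 8.15 at day 7, and 8.18 and 7.09 at day 14. The groups did not overlap on any day, and the female preparations spread apart after day 1. The change between days 14 and 1 differed by -0.79 ± 0.50 (male minus female, limma adjusted p = 0.881), so a widening did not pass. The sex difference in the change to day 7 was not tested. Over all days the level was 6.64 ± 0.18 in males and 7.89 ± 0.45 in females (SD, n = 2 each), a difference of -1.25 ± 0.24 (adjusted p = 0.109), which was -1.57 to -0.93 without each preparation in turn.
Its relative Ppp1r3b, the main such subunit of rodent liver, was closer between the sexes. It had 8.80 and 8.77 in males and 9.37 and 9.80 in females at day 1, 9.23 and 9.26 in males and 9.69 and 9.68 in females at day 7, and 8.57 and 8.83 in males and 9.45 and 9.20 in females at day 14. Males were lower within each day, although male arrays of day 7 lay just above the female array of preparation 2 at day 14. The difference over all days was -0.62 ± 0.07 (adjusted p = 0.0735), from 8.91 ± 0.06 in males and 9.53 ± 0.04 in females (SD, n = 2 each).

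Gys2 and Pygl, the liver forms of glycogen synthase and phosphorylase, both stood lower in males. Gys2 had 7.60 and 7.87 in males and 8.50 and 8.99 in females at day 1, 8.25 and 8.46 in males and 8.89 and 9.04 in females at day 7, and 7.86 and 8.20 in males and 8.75 and 8.48 in females at day 14. Pygl had 10.10 and 10.04 in males and 10.34 and 10.53 in females at day 1, 9.93 and 10.07 in males and 10.44 and 10.32 in females at day 7, and 9.65 and 9.85 in males and 10.18 and 10.15 in females at day 14. Neither gene overlapped between the sexes on any pair of arrays. Over all days Gys2 differed by -0.73 ± 0.11 (adjusted p = 0.0912) and Pygl by -0.39 ± 0.07 (adjusted p = 0.0933), which is 1.66-fold and 1.31-fold lower in males.

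Among the other gluconeogenic genes, Fbp1 lay below in males at each day, and its difference over all days was -0.39 ± 0.09 (adjusted p = 0.132). Ppargc1a ran from 6.20 to 6.96 on male arrays, with a median of 6.65, and from 6.96 to 7.33 on female arrays, with a median of 7.06. The highest male and the lowest female array of Ppargc1a were thus almost level, and the difference over all days was -0.44 ± 0.09 (adjusted p = 0.122). Pcx, whose enzyme makes oxaloacetate in mitochondria, had the narrowest range, 9.61 to 9.90 on male and 9.87 to 10.06 on female arrays, with a difference of -0.17 ± 0.08 (adjusted p = 0.347, 95% interval -0.40 to 0.05).
Pck1 kept no fixed order of the sexes across the days. Male preparations 1 and 2 had 5.31 and 6.11 at day 1, 4.77 and 4.41 at day 7, and 4.58 and 4.18 at day 14. Female preparations 1 and 2 had 5.39 and 4.95 at day 1, 4.996 and 5.10 at day 7, and 6.30 and 4.62 at day 14. The 2 highest arrays were male preparation 2 at day 1 and female preparation 1 at day 14, and 5 of 12 arrays were under 4.79. The difference over all days was -0.33 ± 0.23 (adjusted p = 0.490), and without female preparation 1 it was 0.00096 (adjusted p = 0.996).

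**Figure D2:**
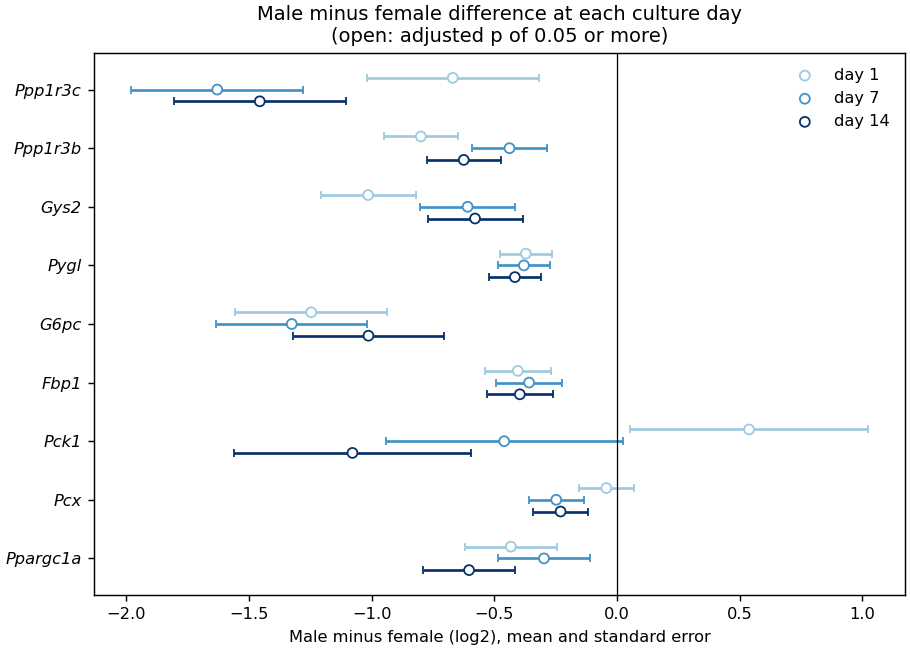
Male minus female difference of the log2 level (horizontal axis, point and standard error of the limma model, 2 preparations a sex) for each gene at days 1, 7 and 14. All values but that of Pck1 at day 1 (0.54) lie below 0, and none had an adjusted p under 0.05.

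Within single days, 0 of 9 genes passed at day 1, at day 7 or at day 14, where 0.767%, 0.354% and 1.06% of all genes did. The nearest were Ppp1r3b (-0.80 ± 0.15, adjusted p = 0.0573) and Gys2 (-1.01 ± 0.19, adjusted p = 0.0586) at day 1, and Ppp1r3c (-1.46 ± 0.35, adjusted p = 0.0954) and Ppp1r3b (-0.62 ± 0.15, adjusted p = 0.0979) at day 14. At an unadjusted p under 0.05 there were 6, 6 and 7 of the 9 at days 1, 7 and 14, all lower in males, against 6.47%, 6.64% and 8.49% of all genes lower in males. With a trended and robust spread in limma 3, 1 and 2 genes passed at days 1, 7 and 14, against 2.46%, 1.5% and 3.47% of all genes. Over all days 6 of 9 did so with that spread, against 8.21% of all genes. A filter on low means removed Pck1. Of the 8 genes it kept, 2 passed at day 1 (1.41% of all genes kept) and 5 over all days (3.16%).

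Markers of other liver cells were set beside the sex differences. On the mean log2 level of 10 stellate cell and fibroblast markers, male arrays stood at 7.32 to 7.53 and female arrays at 7.45 to 7.50 at day 1, whereas at day 14 the ranges were 4.29 to 5.49 in males and 6.59 to 7.03 in females. The 7 of 10 sinusoidal endothelial markers measured stood at 5.64 to 6.48 in males and 6.36 to 6.62 in females at day 1, and at 3.89 to 4.35 in males and 5.37 to 5.76 in females at day 14. The 9 of 10 macrophage markers measured overlapped, at 4.52 to 5.89 in males and 4.19 to 7.26 in females over all days, and 0 of 7 lymphocyte markers were measured. The 8 hepatocyte markers had mean levels of 10.93 to 11.10 in males and 11.11 to 11.27 in females at day 1, 10.88 to 11.05 in males and 11.27 to 11.43 in females at day 7, and 10.70 to 10.82 in males and 11.02 to 11.31 in females at day 14, so males were lower on each day. Over all days the ranges of the 8 overlapped, at 10.70 to 11.10 in males and 11.02 to 11.43 in females. Without Cyp2e1 they overlapped as well, at 11.81 to 11.96 in males and 11.89 to 12.03 in females. The list without Cyp2e1 was not compared by single day. The part of these marker levels in the sex differences was not tested.

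The same order was counted in the wider pathway. Both male preparations lay below both female ones at each day in 0 of 19 other glycogen genes, 5 of 23 other genes of gluconeogenesis and glucose export, 3 of 15 of glucose uptake and glycolytic control and 4 of 31 of hormone signalling, beside the 5.5% of all genes. The reverse order was seen in 1, 0, 1 and 3 genes of these lists, and 0 of the 88 genes passed between the sexes by limma at any day or over all days. The 5 of gluconeogenesis and glucose export were Slc37a4, Slc2a2, Got2, Pdk1 and Pdk2. Of these Pdk1 had the widest difference over all days (-0.53 ± 0.06, limma adjusted p = 0.0743). Slc37a4 and Slc2a2 are described further, chosen after their values were seen. Slc37a4, which carries glucose-6-phosphate into the endoplasmic reticulum, averaged 10.25 in males and 10.66 in females (difference -0.41 ± 0.07, adjusted p = 0.0919). Slc2a2, the liver glucose transporter, averaged 11.73 in males and 12.02 in females (difference -0.29 ± 0.06, adjusted p = 0.116).

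Over the whole culture, Fbp1 and Pygl fell and the other 7 genes did not pass. Fbp1 stood at 10.13 and 10.39 in males and 10.74 and 10.57 in females at day 14, against 10.49 and 10.70 in males and 10.86 and 11.13 in females at day 1. The day 14 and day 1 levels overlapped across the sexes, but each of the 4 preparations was lower at day 14, by 0.12 to 0.56. Of the 9 genes, 2 were lower in all 4 preparations, against 16.2% of all genes. The change was -0.34 ± 0.09 (SE, limma adjusted p = 0.0482), and that of Pygl was -0.29 ± 0.08 (adjusted p = 0.0348), with all 4 preparations lower by 0.16 to 0.44. These 2 of 9 compare with 14.4% of all genes that passed in day 14 against day 1, and 6.8% of all genes passed as lower, a share too close for the count to set the 9 genes apart. Both calls were lost whichever preparation was left out (adjusted p 0.0796 to 0.305 for Fbp1 and 0.0983 to 0.269 for Pygl). That of Pygl was lost with the preparation as a fixed block (0.0541), and that of Fbp1 after centring the arrays (0.0511) or a second quantile normalization (0.0544).

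**Figure D3:**
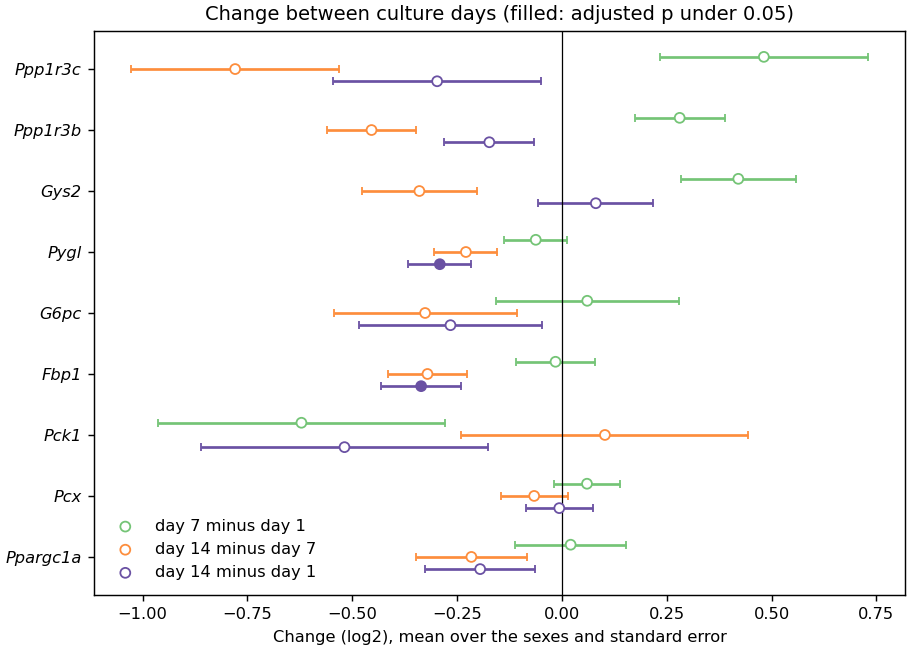
Change of the log2 level between days (horizontal axis, mean over the sexes with the standard error of the limma model, 4 preparations a day) for each gene. Filled points had an adjusted p under 0.05 and are Fbp1 (-0.34) and Pygl (-0.29) in day 14 against day 1; the values of day 14 against day 7 lie below 0 for every gene but Pck1.

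Most of the 9 genes were lower at day 14 than at day 7, without passing. Between days 14 and 7, 6 of the 9 genes (Ppp1r3c, Ppp1r3b, Gys2, Pygl, Fbp1 and Pcx) were lower in all 4 preparations, against 11.3% of all genes, and the median change of the 9 was -0.32 against 0.01 over all genes. The fall of Pcx was slight, at -0.11 and -0.0015 in male and -0.03 and -0.12 in female preparations (mean -0.07 ± 0.08, limma adjusted p = 0.782). None of the 9 passed by limma in this comparison, where 0.489% of all genes did. At an unadjusted p under 0.05 there were 5 of 9, all lower, against 6.77% of all genes lower by that rule. Ppp1r3c changed by -0.95, -0.44, -0.67 and -1.06 in male preparations 1 and 2 and female preparations 1 and 2, with a mean of -0.78 ± 0.25 (adjusted p = 0.206). Ppp1r3b changed by -0.67, -0.43, -0.24 and -0.48 in the same order, with a mean of -0.45 ± 0.11 (adjusted p = 0.117). Both targeting subunits were thus lower in each preparation, and Gys2 was too, at -0.34 ± 0.14 (adjusted p = 0.321). G6pc differed by -1.23 in female preparation 2 and by -0.31, -0.03 and 0.27 in male preparations 1 and 2 and female preparation 1, so that its mean of -0.33 ± 0.22 (adjusted p = 0.576) was 0.05 without female preparation 2.
With a trended and robust spread Ppp1r3b (adjusted p = 0.0131) and Fbp1 (0.0445) passed, as did 2.61% of all genes.

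In the first week Gys2 was higher at day 7 than at day 1 in all 4 preparations, by 0.05 to 0.65, with a mean of 0.42 ± 0.14 (adjusted p = 0.133), as were 15% of all genes. Ppp1r3c had a mean of 0.48 ± 0.25 (adjusted p = 0.333), made of 1.26 and 0.67 in the females and 0.11 and -0.11 in the males, and Ppp1r3b one of 0.28 ± 0.11 (adjusted p = 0.197). Fbp1, G6pc, Pcx, Pygl and Ppargc1a had means between -0.06 and 0.06. Pck1 had -0.62 ± 0.34 (adjusted p = 0.370), most of it from male preparation 2 at -1.70. By limma 0 of the 9 passed in this comparison, where 4.72% of all genes did, and 2 of 9 had an unadjusted p under 0.05, against 19.5% of all genes. By limma the change between days 14 and 1 differed between the sexes in 0 of 9 genes and 0% of all genes, 1 of 9 had an unadjusted p under 0.05 against 6.87% of all genes, and the largest value was that of Pck1 at -1.62 ± 0.68 (male minus female, unadjusted p = 0.0438, adjusted p = 0.706).

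Markers of other cells moved with culture day as well. From day 1 through day 7 to day 14 the median over arrays of the mean stellate marker level was 7.47, 6.70 and 6.04, that of endothelial markers 6.42, 6.03 and 4.86, and that of macrophage markers 4.80, 5.78 and 5.61. Cholangiocyte and progenitor markers (6 of 8 measured) were at 6.42, 7.09 and 7.35, and the hepatocyte list at 11.10, 11.16 and 10.92. Of these lists 6 of 10 stellate and 4 of 7 endothelial markers fell in day 14 against day 1. In the same comparison 3 of 6 cholangiocyte and 1 of 9 macrophage markers rose. Of all genes 14.4% passed there in either direction and 6.8% as lower, so the macrophage count does not set that list apart. The part of these markers in the values of the 9 genes was not tested.

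Other genes of glucose metabolism gave larger changes in day 14 against day 1 than Fbp1 and Pygl did. Mlxipl, which encodes the glucose-sensing factor ChREBP, fell by 0.80 (SE 0.09, limma adjusted p = 0.00103) and passed with any 1 preparation left out (adjusted p 0.0158 to 0.0261). Of 15 measured genes of glucose uptake and glycolytic control 3 fell and 1 rose, beside the 14.4% of all genes that passed in either direction (median -0.12 against 0.01 over all genes). The phosphofructokinase gene Pfkl changed by -0.59 ± 0.09 and Pfkfb3, whose enzyme makes the activator of phosphofructokinase, by -0.72 ± 0.18. Hk1, a hexokinase of most tissues, rose by 0.80 ± 0.13.
Of 23 other genes of gluconeogenesis and glucose export 4 fell and 1 rose (median -0.03), again beside 14.4% of all genes. The transaminase genes Gpt2 and Got1 changed by -0.66 ± 0.13 and -0.42 ± 0.07 and Pdk1, a kinase that inhibits pyruvate dehydrogenase, by -0.52 ± 0.09, while G6pc3, the widely expressed relative of G6pc, rose by 0.66 ± 0.12.

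**Figure D4:**
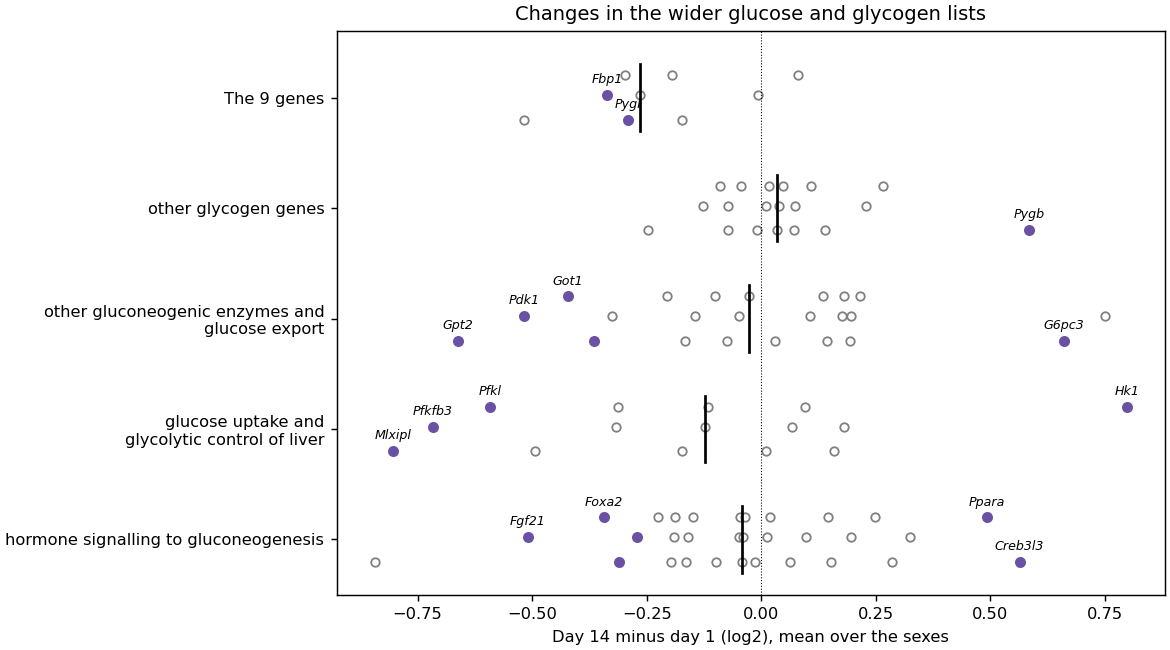
Day 14 minus day 1 change of the log2 level (horizontal axis) of each measured gene in the 9 and in 4 wider lists, 1 point per gene at an arbitrary height, with the list median as a bar. Filled points passed at an adjusted p under 0.05, and up to 4 per list are labelled; they range from Mlxipl at -0.80 to Hk1 at 0.80.

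Among 19 other glycogen genes Pygb, the brain form of glycogen phosphorylase, alone passed in day 14 against day 1. Pygb stood at 0.48 ± 0.10 in day 7 against day 1 (adjusted p = 0.0324) and 0.58 ± 0.10 in day 14 against day 1 (adjusted p = 0.00612), opposite in sign to the liver form Pygl, and the list median was 0.03. Of 31 hormone signalling genes 4 fell and 2 rose in day 14 against day 1 (median -0.04), where 14.4% of all genes passed. Creb3l3, a liver factor of fasting metabolism, rose by 0.56 ± 0.09 and the nuclear receptor gene Ppara by 0.49 ± 0.11. Fgf21, a hormone that liver secretes in fasting and stress, changed by -0.51 ± 0.14 and the forkhead factor gene Foxa2 by -0.34 ± 0.08. In day 7 against day 1 Pygb, Creb3l3 (0.38) and Slc2a1, a glucose transporter of most tissues (-0.31 ± 0.07), were the only genes of the 4 lists to pass. The calls of these 3 in the first week were lost whichever preparation was left out, and those in day 14 against day 1, all but Mlxipl, without at least 1 (highest adjusted p from 0.0611 for Creb3l3 to 0.228 for Fgf21).

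The genes with the profile most like Fbp1 over the 12 arrays were Oaf (Pearson r = 0.962), the ketohexokinase gene Khk (0.952), Timd2 (0.950), 1810055G02Rik (0.948) and Thrsp, a gene of hepatic lipid synthesis (0.946). For Pck1 they were Ptk7 (0.867), Sulf1 (0.865), the early growth response gene Egr2 (0.863), Gipc3 (0.830) and Cenpm (0.826), and of these Ptk7 and Sulf1 had day means under 4.79. The arrays share preparations, sex and day, so these values only describe likeness.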

How the data were processed

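Biotin-labelled total RNA of 12 spheroid samples was hybridised to expression arrays. The values were used as deposited, on the log2 scale, with 1 value for every probe set on every array. RMA, Transcriptome Analysis Console 4.0 and Partek 7.0 appear in the submitters' processing notes, where neither order nor role is stated. No source used here gives the array build, annotation release or filters. The platform annotation gave 1 symbol to 11889 probe sets, none to 1192 and several to 0. Where a symbol had more than 1 probe set (19 symbols), that of highest mean stood for it, which left 11861 genes.

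Sample labels set the groups. limma 3.58.1 in R 4.3.3 was fitted to all genes with 1 mean for each of 6 groups of sex and day. To compare the sexes across the culture, a preparation's 3 arrays were first reduced to their mean. P-values were two-sided and adjusted by the Benjamini-Hochberg method over all genes, with 0.05 as the threshold. A day change is the mean of the changes in both sexes, and the female level is subtracted from the male one. Each ± on a change is the model's SE. The number of arrays limits the precision, and preparations are pools. The fit with 6 group means had no block, so the 3 arrays of a pool entered as if independent. Its p-values, for days and for the sexes within a day, rest on the spread within groups, shared over all 6. They do not use the spread of the changes within pools. Only the p-values of the sexes over all days rest on 4 preparation means, and so on the spread between pools. The script was tested on simulated data. Arrays of different days pair by preparation, because the labels give 1 pool for the 3 days, and their deviations from group means correlated at 0.0359 to 0.324 across genes. Alternatives were the preparation as a fixed or random block, each preparation left out, a trended and robust spread, 2 other scalings, another probe set rule and a filter on low means. Named genes were the 9, up to 4 genes per list, by size of change, of those that passed, and the 5 genes most correlated with each of the 2 of the 9 that had the largest change in day 14 against day 1. The genes and lists were chosen with earlier results of these data known. All per-sample columns were used (0 were not).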

Additional observations from a re-analysis of the deposited data

Results flagged for a closer look

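Pcx, the pyruvate carboxylase gene, was lower at day 14 than at day 1 in both male preparations (-0.20 and -0.0014) and higher in both female preparations (0.17 and 0.0075), and it stands here because the sexes moved in opposite directions. The male minus female difference of the change was -0.19 ± 0.16 (limma adjusted p = 0.935), and the changes of male preparation 2 and female preparation 2 were within 0.01 of 0. In 27 sets of 4 preparations at a day (9 genes on 3 days), no single preparation stood far from the others by Dixon's criterion. With only 4 values that criterion flags little. Pck1 at day 14 was not flagged, with 6.30 in female preparation 1 beside 4.18, 4.58 and 4.62 in the others.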

How the results depend on the processing

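The preparation as a replicate block left 1 of the 2 genes that passed in day 14 against day 1, as did centring each array on its median (1) and a second quantile normalization (1), and with any 1 preparation left out 0 passed. The block that lost Pygl was the fixed one, and no other call of the 9 genes changed with a block. Over all genes, the fixed block gave 1660 calls in day 14 against day 1 and the random block 1834, against 1706 without a block. With a trended and robust spread, 2 of the 9 genes passed in day 14 against day 7 (2.61% of all genes), and 3, 1 and 2 passed between the sexes at days 1, 7 and 14 (2.46%, 1.5% and 3.47%) and 6 over all days (8.21%, or 974 genes against 21). With genes of a mean of at least 6 alone, 8 of the 9 were kept, without Pck1. Of these, 2 passed between the sexes at day 1 (1.41% of 8910 genes) and 5 over all days (3.16%, or 282 genes against 21). Fewer genes were tested there, and the cause of the higher counts was not tested. Over all genes, day 14 against day 1 gave 1706 calls and 494, 583, 826 and 791 without male preparation 1, male preparation 2, female preparation 1 and female preparation 2, where fewer arrays entered. Day 14 against day 7 gave 58, and 0, 2, 8 and 7 in the same order, 309 with the trended and robust spread, 101 and 86 with the fixed and random block and 103 with the filter on means.

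Signs that turned belonged to values that had not passed. With single preparations left out, day 7 against day 1 ran from -0.11 to 0.24 for G6pc, -0.061 to 0.030 for Fbp1, -0.14 to 0.014 for Pygl and -0.12 to 0.16 for Ppargc1a. Day 14 against day 7 ran from -0.34 to 0.55 for Pck1 and -0.70 to 0.048 for G6pc. Day 14 against day 1 ran from -0.11 to 0.27 for Gys2 and -0.055 to 0.043 for Pcx, which was 0.0018 after the second quantile normalization. The male minus female difference ran from -0.091 to 0.0035 for Pcx at day 1 and from -0.67 to 0.00096 for Pck1 over all days. The sex difference in the change ran from -0.16 to 0.51 for Ppp1r3b, -0.22 to 0.68 for G6pc, -0.21 to 0.23 for Fbp1 and -0.18 to 0.086 for Pygl. The cause was not tested. No paired analysis was possible for the sexes, because male and female preparations came from separate animals. A lone preparation left in a sex was taken to vary like the others, and low signal limits Pck1 on 5 of 12 arrays.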
